A study of Mus musculus with 9 samples.

Results

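A set of 9 genes that mark the path from progenitor to red cell was followed through the RNA of sorted mouse stem and progenitor cells. They are the transcription factors Gata1 and Klf1, the carbonic anhydrases Car1 and Car2, the water channel Aqp1, the transferrin receptor Tfrc, the membrane protein Ermap and the alpha-globin genes Hba-a1 and Hba-a2. The members were picked by symbol and make up 9 of the 38215 genes in the table. The first 7 were taken as early and the 2 alpha-globin genes as late, a division made from general knowledge of red cell development. The cells came from the bone marrow of C57BL/6J mice, all treated with tamoxifen and all carrying Jak2V617F, an activating mutation of the kinase Jak2. In 5 mice (called EV 1 to EV 5) Jak2V617F was the whole genotype given, and in 4 mice (called sgZrsr2 1, 2, 3 and 5) sgZrsr2 was added to it, which the study describes as loss of Zrsr2, a factor of the minor spliceosome. The labels spell out neither EV nor sg. Cells positive for both GFP and mCherry were sorted at the end of the experiment from the LSK fraction, which lacks lineage markers and carries Sca1 and Kit. The age of the mice, the promoter that drives any recombinase and the way sgZrsr2 was delivered are not given in the sources used here.

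Red cells arise from multipotent progenitors that pass through a shared megakaryocyte and erythroid stage. Gata1 switches on the erythroid programme together with Klf1, which binds CACCC motifs in globin and other red cell genes. Erythropoietin then acts through its receptor Epor and the kinase Jak2, so an active Jak2 drives red cell output, the setting of polycythaemia vera. Tfrc brings in the iron for haem, and the carbonic anhydrases and Aqp1 equip the cell for gas and water exchange. The alpha-globins are made last and in great amount. LSK cells lie above this path, and the lineage-negative sort is meant to remove cells with surface markers of mature blood lineages.

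The promoters of Klf1, Ermap and Hba-a2 are shown because these genes were high in the same libraries, as described below, and their promoters hold both GATAA, the core of the motif bound by GATA factors, and CACCC, the motif bound by Klf1. The sequences are RefSeq's on GRCm38.p6, written 5' to 3' along the gene, and end before the first annotated exon. Capitals mark GATAA or CACCC and, where the match is on the other strand, their reverse complements TTATC or GGGTG. The windows are chr8:84901732-84901927 on the plus strand for Klf1, chr4:119190012-119190245 on the minus strand for Ermap and chr11:32296242-32296488 on the plus strand for Hba-a2.
Klf1: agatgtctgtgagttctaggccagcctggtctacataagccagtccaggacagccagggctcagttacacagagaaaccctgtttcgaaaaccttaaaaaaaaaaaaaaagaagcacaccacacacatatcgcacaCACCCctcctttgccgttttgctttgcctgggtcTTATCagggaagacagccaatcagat
Ermap: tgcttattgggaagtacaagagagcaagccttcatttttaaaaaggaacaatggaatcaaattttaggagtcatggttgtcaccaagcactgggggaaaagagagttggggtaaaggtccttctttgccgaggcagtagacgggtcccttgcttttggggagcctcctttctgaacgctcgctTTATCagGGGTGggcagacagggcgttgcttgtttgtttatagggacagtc
Hba-a2: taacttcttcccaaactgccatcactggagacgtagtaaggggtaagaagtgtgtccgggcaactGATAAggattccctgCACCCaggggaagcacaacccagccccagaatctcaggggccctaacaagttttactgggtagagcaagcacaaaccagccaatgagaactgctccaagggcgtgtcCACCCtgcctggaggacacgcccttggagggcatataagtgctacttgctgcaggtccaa

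In Klf1 the GATAA match lay 76 bases before the RefSeq start and the CACCC match 110 bases before it. In Ermap they lay 63 and 56 bases before the start, both on the strand opposite to the gene. Hba-a2 held GATAA 181 bases before the start and CACCC at 166 and 59 bases. The Hba-a1 promoter had the same letters over 297 aligned bases with 0 mismatches, shifted by 3 bases. Gata1, Aqp1 and both listed starts of Tfrc had CACCC matches and none for GATAA, and the promoters of Car1 and Car2 were not analysed here. Over 32817 promoters, the 250 bases before the start held GATAA on either strand in 22.6%, CACCC in 52.0% and both in 10.05%. A match of letters in such a window is a description and says nothing of binding in these cells.

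The libraries held 23238264 to 45585531 expected counts, and levels are given as CPM, which divides counts by library size, with TMM factors of 0.894 to 1.07. Zrsr2, the targeted gene, had a mean of 53.4 ± 4.94 CPM in EV (SD, n = 5) and a lower one of 38.9 ± 5.30 CPM in sgZrsr2 (SD, n = 4), with no overlap (two-sided exact permutation p = 0.0159, the smallest possible). In the 9 libraries the genes of the LSK gate were present, with Kit at 247 to 632 CPM, Ly6a (which encodes Sca1) at 14.8 to 49.3 CPM and Cd34 at 544 to 705 CPM. Genes of other lineages were present too. The 12 lymphoid genes summed to 60.3 to 102 CPM, although the T cell gene Cd3e among them reached at most 0.0873 CPM. The 10 mature neutrophil genes summed to 23.1 to 226 CPM. For most erythroid members EV 5 stood apart from the other EV mice, and sgZrsr2 3 and 5 stood apart from sgZrsr2 1 and 2. Mice 1 and 2 of sgZrsr2 were close to each other in these genes. The titles number the mice separately, and nothing else in the labels says how they were kept or processed, so the p-values measure the spread between these samples.

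Between sgZrsr2 and EV, 8 of the 9 members had enough counts to be tested, and none had an edgeR quasi-likelihood p under 0.05 after Benjamini-Hochberg adjustment, the background being 0% of 14944 genes. At an unadjusted p under 0.05 there was 1 member lower, Tfrc, against a background of 2.98% lower, and 0 higher, against 3.87%. DESeq2 also passed 0 members, against 16 of all genes (0.107%), and had 1, Tfrc, at an unadjusted p under 0.05 (background 3.81% lower and 4.72% higher). The limma-voom fit passed 0 members (background 0%) and had 0 at an unadjusted p under 0.05 (background 8.73% lower and 8.34% higher). Of the 8 members tested, 7 had positive log2 fold changes (87.5%, against 48.5% of all genes) and their median was 1.35, against -0.01 over all genes. These 7 are not 7 separate results, since several of the genes were high in the same libraries. The groups overlapped for all 9 members, where 3.06% of all genes had groups that did not. More or fewer cells of an erythroid type and more or less erythroid RNA per cell cannot be told apart in these bulk libraries.

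The transcription factors came first in this path. Gata1 (ENSMUSG00000031162; chromosome X, 7959260 to 7978071, minus strand of GRCm38) was found at 8.47, 6.83, 2.31, 9.57 and 24.1 CPM in EV 1 to 5, and at 8.64, 5.08, 26.2 and 38.8 CPM in sgZrsr2 1, 2, 3 and 5. It was present in every library, lowest in EV 3, and sgZrsr2 1 and 2 lay among EV 1 to 4. Its log2 fold change was 0.94 (SE 0.67; edgeR, Benjamini-Hochberg adjusted p = 0.742; two-sided exact permutation p = 0.286). Klf1 (ENSMUSG00000054191; chromosome 8, 84901928 to 84905295, plus strand) was at 1.27, 1.75, 0.779, 1.09 and 8.81 CPM with EV and at 0.668, 1.52, 14.3 and 12.3 CPM with sgZrsr2. The same 3 libraries were high, and the other 6 stayed below 2 CPM. Its log2 fold change was 1.40 (SE 0.93; edgeR adjusted p = 0.736; exact permutation p = 0.254).

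Car1 and Car2 are neighbours on chromosome 3 and encode enzymes that interconvert carbon dioxide and bicarbonate, yet Car2 was high throughout and Car1 was not. Car1 (ENSMUSG00000027556; 14766216 to 14808368, minus strand) was at 0.0288, 0.199, 0.0935, 0.422 and 25.4 CPM with EV, and at 0, 0.160, 39.3 and 35.5 CPM with sgZrsr2. Behind these levels stood 1, 9, 3, 19 and 874 counts with EV and 0, 4, 1617 and 1275 counts with sgZrsr2. Car1 thus ran from a handful of counts or fewer to 25.4 CPM or more within each group. By counting error alone, the 0 counts of sgZrsr2 1 allow up to 3. Its log2 fold change was 1.85 with an SE almost as large, 1.82 (edgeR adjusted p = 0.806; exact permutation p = 0.286). Car2 (ENSMUSG00000027562; 14886426 to 14900769, plus strand) was at 195, 140, 118, 93.7 and 225 CPM with EV and at 197, 168, 304 and 210 CPM with sgZrsr2. It was high in all 9 libraries and spanned 3.24-fold between the lowest and the highest, where Gata1 spanned 16.8-fold and Klf1 21.4-fold. Its log2 fold change was 0.51 (SE 0.26; edgeR adjusted p = 0.714; exact permutation p = 0.143).

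The membrane proteins Aqp1 and Ermap followed Car1. Aqp1 (ENSMUSG00000004655; chromosome 6, 55336432 to 55348555, plus strand) carries water across the red cell membrane. It was at 8.49, 6.72, 5.27, 5.17 and 43.3 CPM with EV and at 6.90, 3.999, 60.7 and 63.9 CPM with sgZrsr2, so a base level was present in every library and EV 5, sgZrsr2 3 and sgZrsr2 5 lay well above it. The log2 fold change was 1.30 (SE 0.89; edgeR adjusted p = 0.737; exact permutation p = 0.270). Ermap (ENSMUSG00000028644; chromosome 4, 119175457 to 119190011, minus strand) encodes an erythroid membrane-associated protein. It was at 0.0288, 0.133, 0.0624, 0.266 and 4.30 CPM with EV and at 0, 0, 22.5 and 11.4 CPM with sgZrsr2. Only 1, 6, 2 and 12 counts stood behind EV 1 to 4, against 148, 923 and 408 in EV 5, sgZrsr2 3 and sgZrsr2 5. Ermap was the member below the filter on low counts. Without the filter its log2 fold change was 3.14 (SE 1.60; edgeR adjusted p = 0.710 over 22387 genes; exact permutation p = 0.333).

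**Figure D1:**
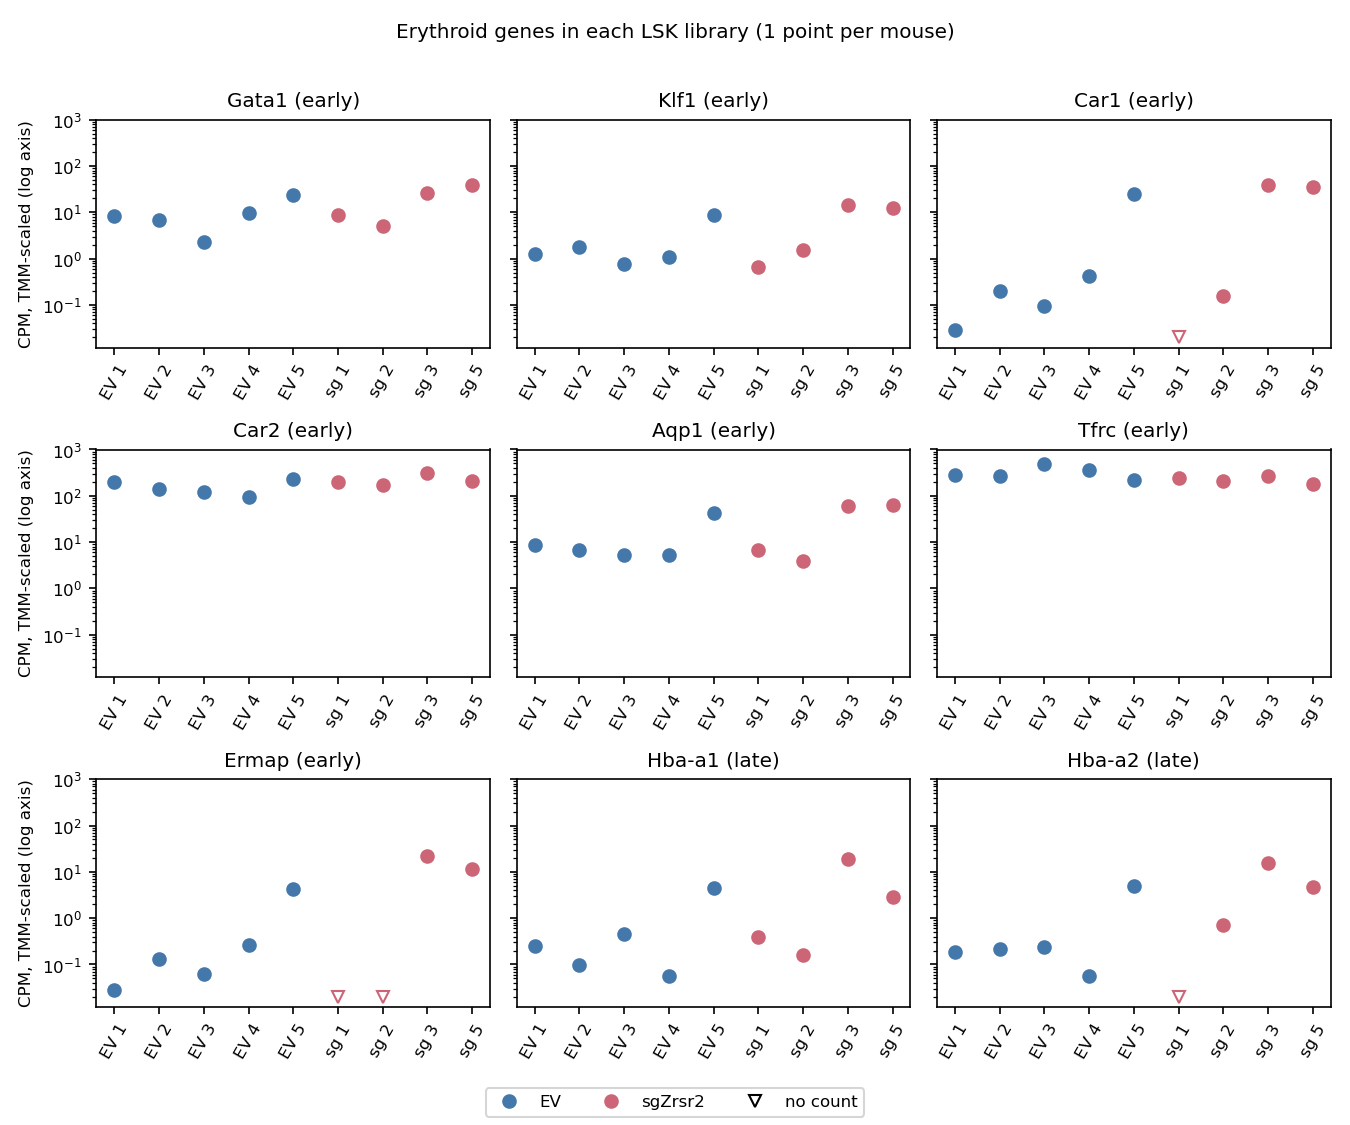
Levels of the 9 genes in each library (TMM-scaled CPM on a log axis, 1 point per mouse, EV in blue and sgZrsr2 in red, open triangles for no count). EV 5 and sgZrsr2 3 and 5 lie above the other libraries for Gata1, Klf1, Car1, Aqp1, Ermap and both alpha-globin genes, while Car2 and Tfrc stay within 93.7 to 304 and 180 to 486 CPM.

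Tfrc ran the other way. The gene (ENSMUSG00000022797; chromosome 16, 32608920 to 32632794, plus strand) was at 284, 267, 486, 359 and 217 CPM with EV and at 244, 212, 270 and 180 CPM with sgZrsr2. EV 3 was highest and sgZrsr2 5 lowest, and the range over the libraries was 2.71-fold. EV 5, the highest EV library for each of the other 8 members, had the lowest Tfrc of the EV group. The log2 fold change was -0.51 (SE 0.22; edgeR unadjusted p = 0.0429, Benjamini-Hochberg adjusted p = 0.714; exact permutation p = 0.0952). Without EV 3 it was -0.32. The edgeR unadjusted p of Tfrc was 0.0961 without EV 3 and 0.0821 without EV 4. It was 0.0571, 0.0880 and 0.117 without sgZrsr2 1, 2 and 5. It stayed under 0.05 without EV 1, EV 2, EV 5 or sgZrsr2 3. Tfrc serves dividing cells in general and is not limited to the red cell path.

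The late members are 2 copies of the adult alpha-globin gene on chromosome 11, Hba-a1 (ENSMUSG00000069919; 32283511 to 32284465) and Hba-a2 (ENSMUSG00000069917; 32296489 to 32297298), both on the plus strand. Of the 50-base windows of the Hba-a2 transcript 86.9% were also in that of Hba-a1, and RSEM, which divides reads between genes they match equally, gave each of them whole counts in 1 library of 9, against 9 of 9 for every other member. The division between the copies is therefore uncertain, and their sum is the surer value. Hba-a1 was at 0.251, 0.0975, 0.453, 0.0555 and 4.57 CPM with EV and at 0.401, 0.163, 19.4 and 2.85 CPM with sgZrsr2. Hba-a2 was at 0.181, 0.212, 0.233, 0.0555 and 4.91 CPM with EV and at 0, 0.717, 15.2 and 4.80 CPM with sgZrsr2. Both copies were highest in sgZrsr2 3. Their log2 fold changes were 2.41 (SE 1.43; edgeR adjusted p = 0.721) and 2.24 (SE 1.45; adjusted p = 0.735). Without sgZrsr2 3 they were 0.11 and 0.75, and without EV 5 that of Hba-a1 was 4.78.

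Summed, alpha-globin was at 0.432, 0.309, 0.686, 0.111 and 9.48 CPM in EV 1 to 5 and at 0.401, 0.880, 34.7 and 7.65 CPM in sgZrsr2 1, 2, 3 and 5. These levels rested on 5 to 22 counts in the 6 low libraries and on 326, 1425 and 275 counts in EV 5, sgZrsr2 3 and sgZrsr2 5. In the 6 low libraries alpha-globin was thus counted at a few reads, and sgZrsr2 3 stood alone at the top. The log2 fold change of the sum was 2.32 (SE 1.39; edgeR adjusted p = 0.726; exact permutation p = 0.381).

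The size of most fold changes hung on the 3 libraries high in Car1, EV 5, sgZrsr2 3 and sgZrsr2 5. Without EV 5 the log2 fold change was 1.54 for Gata1, 2.56 for Klf1, 2.41 for Aqp1, 0.69 for Car2, -0.62 for Tfrc and 4.85 for the alpha-globin sum. All 6 members still tested then had an unadjusted p under 0.05, 5 of them higher, where the background was 5.22% of genes higher and 3.51% lower, and none passed the adjusted threshold (edgeR, smallest adjusted p of these 6 members 0.507). Car1, Ermap and Hba-a2 fell below the filter there. These 6 are not separate results, since several of the genes were high in the same libraries, which holds for the counts below too. With EV 5 left out, the libraries still high in Car1, sgZrsr2 3 and sgZrsr2 5, were all from sgZrsr2 mice. Without sgZrsr2 3 the values shrank to 0.77 for Gata1, 0.83 for Klf1, 0.86 for Aqp1, 1.195 for Car1, 0.31 for Car2 and 0.45 for alpha-globin, with Tfrc at -0.61. Only Tfrc then had an unadjusted p under 0.05, where the background was 2.13% lower and 2.81% higher. Without sgZrsr2 5 Gata1 was at 0.38 and Aqp1 at 0.80, lower than without any other library, while Klf1 was at 1.02 and Car1 at 1.34. With both EV 5 and sgZrsr2 3 left out, a setting chosen after the values were seen, Klf1 was at 1.99, Aqp1 at 1.96, Gata1 at 1.37 and alpha-globin at 2.98. Of the 6 members then tested 3 (Klf1, Aqp1 and Hba-a1) were higher and 1 (Tfrc) was lower at an unadjusted p under 0.05 (background 3.43% higher and 2.24% lower) and none passed the adjusted threshold. No member changed sign in any of these fits.

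**Figure D2:**
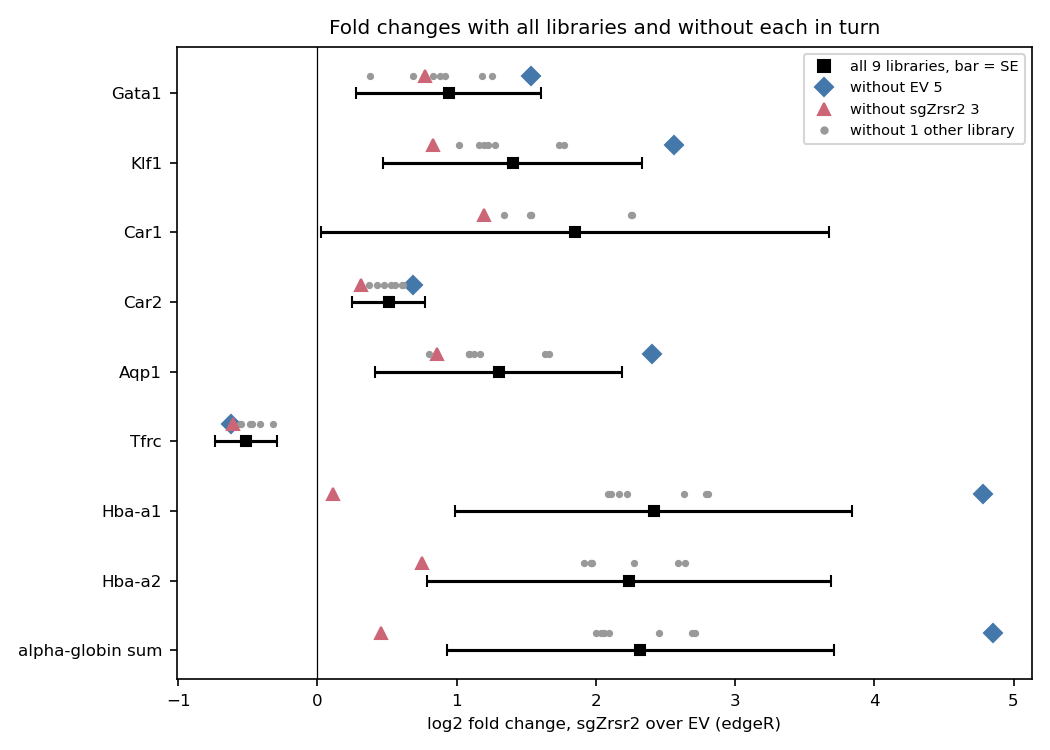
Log2 fold changes, sgZrsr2 over EV, from edgeR with all 9 libraries (squares, bars of 1 SE) and without each library in turn (points; diamonds without EV 5, triangles without sgZrsr2 3). For the alpha-globin sum the value moves from 2.32 to 4.85 without EV 5 and to 0.45 without sgZrsr2 3, while Tfrc stays between -0.62 and -0.32.

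Early and late members were then set against each other in each library. The mean log2 CPM of the 7 early genes was 2.18, 2.46, 1.92, 2.60 and 5.08 in EV 1 to 5 and 1.82, 1.97, 5.80 and 5.54 in sgZrsr2 1, 2, 3 and 5. The log2 CPM of alpha-globin was -1.03, -1.45, -0.43, -2.57 and 3.25 with EV and -1.13, -0.09, 5.12 and 2.95 with sgZrsr2. The libraries that were high in the early genes were also high in alpha-globin, and the early mean lay above alpha-globin in all 9. That mean is not scaled by gene length and includes Car2 and Tfrc, which were high in every library, so it does not rank each early gene. In sgZrsr2 3 alpha-globin, at 34.7 CPM, was above Gata1 (26.2), Klf1 (14.3) and Ermap (22.5). It was below Car1 (39.3), Aqp1 (60.7), Tfrc (270) and Car2 (304) there, in CPM not scaled by gene length. Per kilobase of exon alpha-globin, at 46.9, was above Tfrc (43.7), Car1 (31.5) and Aqp1 (23.1) in sgZrsr2 3. It was below Car2 (125.5). The early mean minus alpha-globin was 3.29 ± 1.32 with EV (SD, n = 5) and 2.07 ± 0.99 with sgZrsr2 (SD, n = 4). It ranged from 0.68 in sgZrsr2 3 to 5.17 in EV 4, and the groups overlapped. The difference between the groups was -1.22, given as a description with no p because it is a score over members chosen with results known. It was -0.75 without EV 4 and -0.76 without sgZrsr2 3.

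**Figure D3:**
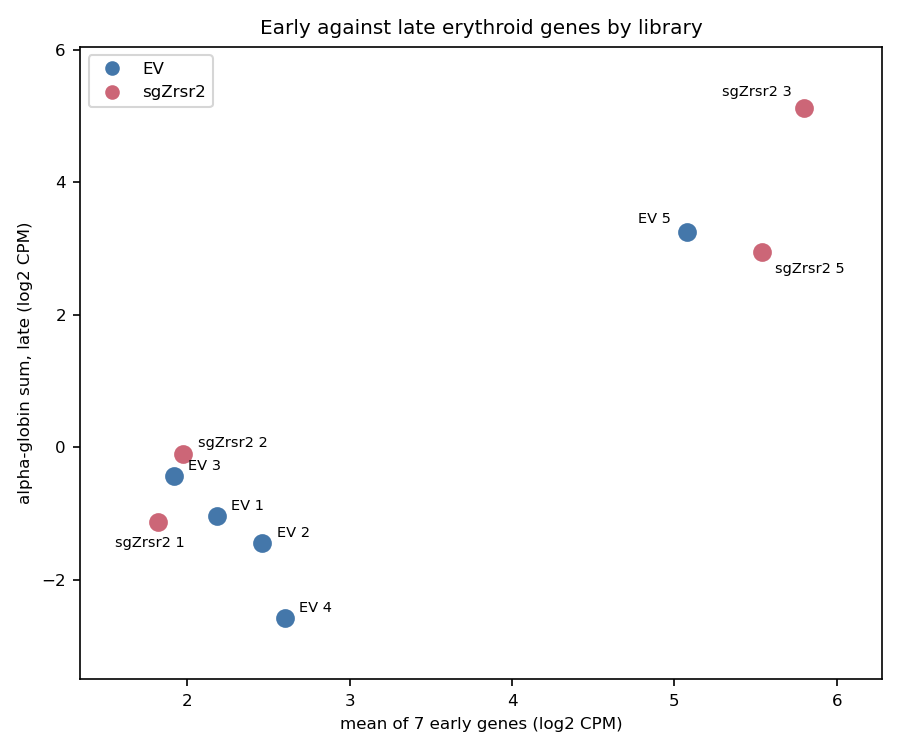
Mean log2 CPM of the 7 early genes (horizontal) against log2 CPM of the summed alpha-globin genes (vertical), 1 point per library, EV in blue and sgZrsr2 in red. EV 5 and sgZrsr2 3 and 5 lie apart from the other 6 libraries, and sgZrsr2 3 has more alpha-globin (5.12) than sgZrsr2 5 (2.95) at a like early mean (5.80 and 5.54).

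Where Car1 had at least 100 counts, the other genes could be read as ratios to it, each taken per kilobase of exon and given with a 95% exact interval that covers counting error only. The ratio of Klf1 to Car1 was 0.283 (0.247 to 0.323) in EV 5, 0.297 (0.269 to 0.326) in sgZrsr2 3 and 0.283 (0.253 to 0.315) in sgZrsr2 5. Aqp1 was at 0.810, 0.733 and 0.855 of Car1 in the same order. The 3 intervals of Klf1 overlapped, while for Aqp1 those of sgZrsr2 3 (0.688 to 0.781) and sgZrsr2 5 (0.798 to 0.916) did not, by a small margin. The ratio of Gata1 to Car1 was 0.486 (0.441 to 0.535), 0.341 (0.316 to 0.369) and 0.559 (0.518 to 0.604), lowest in sgZrsr2 3, whose interval overlapped neither of the others. Klf1 thus kept the closest proportion to Car1 of these 3 early genes, and Gata1 the loosest.

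Alpha-globin and Ermap did not keep a fixed proportion to Car1 either. The ratio of alpha-globin to Car1 was 0.629 (0.553 to 0.716) in EV 5, 1.49 (1.38 to 1.60) in sgZrsr2 3 and 0.364 (0.318 to 0.415) in sgZrsr2 5, and no interval overlapped another. That of Ermap was 0.0399, 0.134 and 0.0754. That of Slc4a1, the band 3 anion exchanger of the red cell membrane, was 0.0117, 0.0601 and 0.00400. All 3 ratios were highest in sgZrsr2 3, which belongs to the same group as the library with the lowest alpha-globin ratio. With so few libraries these ratios describe the mice and give no comparison of the groups.

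Per kilobase of exon, with the 2 alpha-globin copies ranked separately, the order of the levels was steady at the top and changed below it. Car2 and Tfrc took the first 2 places in all 9 libraries, with Tfrc first in EV 3 and 4, where Tfrc was at 78.6 and 58.0 CPM per kilobase and Car2 at 48.9 and 38.7. Car1 came next in EV 5, sgZrsr2 3 and sgZrsr2 5, at 20.4, 31.5 and 28.4 CPM per kilobase. In the other 6 libraries Car1 was at or below 0.338 CPM per kilobase, and Gata1 or Aqp1 came next. The alpha-globin sum, over the mean length of the copies, was at 46.9 CPM per kilobase in sgZrsr2 3. That was above Tfrc (43.7) and Car1 (31.5) and below Car2 (125.5) there. Ermap came last in 8 of 9 libraries, and in sgZrsr2 1 it shared the last place with Car1 and Hba-a2, all 3 at 0 counts. That place depends on the length used, a union of exons of 5297 bases against 1248 for Car1, 812 for Hba-a1 and 667 for Hba-a2. In CPM Ermap was not last in EV 2, EV 4, sgZrsr2 3 or sgZrsr2 5. Gata1 and Aqp1 were neighbours in the order per kilobase in 8 of 9 libraries. They differed by less than their SD over mice, at group means of 4.21 and 5.25 CPM per kilobase with EV and 8.07 and 12.9 with sgZrsr2.

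A further 8 lists of red cell genes, 112 genes in all with the members among them, gave the setting. Of these 92 were tested, and none passed the adjusted threshold in edgeR. At an unadjusted p under 0.05, 8 were higher (background 3.87% of genes) and 2 lower (background 2.98%). Of the 92, 68 had positive log2 fold changes, against 48.5% of all genes, and the median was 0.19, against -0.01 over all genes. These are not separate results, since several of the genes, members included, were high in the same libraries. The early progenitor list, which holds Car1, Car2, Aqp1 and Ermap, had 10 positive values among 10 tested of 15 listed, with a median of 1.02 and 0 genes at an unadjusted p under 0.05. That median was 0.58 without EV 4, 0.59 without sgZrsr2 3, 0.66 without sgZrsr2 5, 1.65 without sgZrsr2 1 and 1.66 without sgZrsr2 2. These medians were not all over the same genes. Of the 8 lists, 103 genes passed the filter without sgZrsr2 1 or 2 and 91 without EV 4, against 92 with all libraries. Without sgZrsr2 1 or 2 all 9 members were tested, Ermap included. Mfsd2b, a sphingosine-1-phosphate exporter of red cells and platelets, had the smallest p among the other genes of the early progenitor list. It was at 8.17 to 59.4 CPM with EV and at 19.8, 19.3, 103.5 and 134.3 CPM with sgZrsr2 (log2 fold change 1.35, SE 0.66; edgeR adjusted p = 0.714). The 14 transcription factors, all tested, had 2 genes higher at an unadjusted p under 0.05 (background 3.87%) and a median of 0.26, which was 0.15 without sgZrsr2 3 and 0.44 and 0.42 without sgZrsr2 1 and 2. One was Nfe2, a factor of globin and platelet genes, which averaged 189.5 ± 15.9 CPM in EV and 233.1 ± 16.9 CPM in sgZrsr2. Its groups did not overlap, which held for no other of the 92 tested genes and for 3.06% of all genes, so such genes were no more common in these lists than elsewhere (log2 fold change 0.30, SE 0.10; edgeR adjusted p = 0.714; two-sided exact permutation p = 0.0159). The other was Gata2, which acts before Gata1 in progenitors, with a log2 fold change of 0.46 (SE 0.16; adjusted p = 0.714). Tal1 and Zfpm1, partners of Gata1, were at 0.41 and 0.68, and Gfi1b was at 0.22 (SE 0.81), with 2.93 to 33.9 CPM in EV mice and 4.24 to 46.1 CPM in sgZrsr2 mice.

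Of the 12 erythropoietin signalling genes, 0 had an unadjusted p under 0.05 in either direction in edgeR, and their median log2 fold change was 0.09. Epor, the receptor, was at 1.38, 1.33, 1.31, 2.51 and 7.74 CPM with EV and at 2.27, 1.44, 8.90 and 8.76 CPM with sgZrsr2, so it was highest in the libraries that were high in Car1 (log2 fold change 0.91, SE 0.69; edgeR adjusted p = 0.753). Jak2 had a log2 fold change of 0.27 (SE 0.13; adjusted p = 0.714). Of the 15 iron genes 2 were higher and 1, Tfrc, lower at an unadjusted p under 0.05 (background 3.87% and 2.98%), with a median of 0.02 that ran from -0.04 to 0.11 over the fits that left out a library. Tfr2, the other transferrin receptor and a partner of Epor, averaged 78.9 ± 16.7 CPM in EV and 106.3 ± 17.9 CPM in sgZrsr2 (log2 fold change 0.43, SE 0.16; adjusted p = 0.714), so its sign was opposite to that of Tfrc. The 12 haem synthesis genes tested of 13 had 0 at an unadjusted p under 0.05, and their median of -0.04 ran from -0.07 to 0.05 over the fits that left out a library. Tmem14c, a porphyrin carrier of mitochondria, had the smallest p among them (log2 fold change -0.25, SE 0.12; adjusted p = 0.714).

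Genes of later red cells did not share a single pattern. The 17 late maturation genes summed to 436 to 502 CPM with EV and to 488 to 549 CPM with sgZrsr2, with Xpo7 at 103 to 119 CPM and Bnip3l at 66.0 to 114 CPM over the 9 libraries. Alas2, Slc4a1 and Rhd stayed below 10 CPM in every library. Alas2, the erythroid enzyme that begins haem synthesis, was at 0.0720, 0.163, 0.159, 0.0193 and 0.173 CPM in EV 1 to 5 and at 0, 0, 1.39 and 0.413 CPM in sgZrsr2 1, 2, 3 and 5. Slc4a1, the anion exchanger of the red cell membrane, was at 1.16, 9.27 and 0.557 CPM in EV 5, sgZrsr2 3 and sgZrsr2 5 and at 0.0624 CPM or less elsewhere. Rhd, a Rhesus blood group protein, was listed here with the early progenitor genes. It was at 0.524, 5.21 and 1.03 CPM in the same order and at 0.111 CPM or less elsewhere. Each of these 3 genes was highest in sgZrsr2 3, as alpha-globin was. None of them passed the filter on low counts. Of the 18 membrane genes 13 were tested, with 3 higher (background 3.87%) and 1 lower (2.98%) at an unadjusted p under 0.05. Their median was 0.46. It rose to 1.84 without sgZrsr2 1 or 2, settings that let more low genes be tested, so it was not over the same genes. Rhag, the partner of the Rhesus proteins, was at 0.111 to 1.105 CPM with EV and at 0.267, 1.12, 6.42 and 2.34 CPM with sgZrsr2 (log2 fold change 2.45, SE 0.83; edgeR adjusted p = 0.714). Fam210b, a mitochondrial gene of late maturation, was the 1 gene of 13 tested on that list higher at an unadjusted p under 0.05 (background 3.87%), averaging 9.17 ± 1.32 CPM in EV and 12.9 ± 2.74 CPM in sgZrsr2 (log2 fold change 0.49, SE 0.19; adjusted p = 0.714).

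The beta-globin genes split. Hbb-bs was at 0.815, 0.617, 0.705, 0.417 and 6.06 CPM with EV and at 1.71, 2.05, 17.5 and 3.89 CPM with sgZrsr2, and it was highest in the same libraries as alpha-globin. Hbb-bt was at 17.0, 13.5, 14.4, 20.4 and 8.05 CPM with EV and at 46.2, 42.3, 15.4 and 5.60 CPM with sgZrsr2. It was lowest in EV 5 and sgZrsr2 5 and highest in sgZrsr2 1 and 2, which had almost no Car1. Hbb-bt made up at least 95.3% of the beta-globin counts in the 6 libraries low in Car1, and 57.1%, 46.8% and 59.0% in EV 5, sgZrsr2 3 and sgZrsr2 5. Both had fractional counts in all 9 libraries, so part of the reads was divided between genes, and the part of that division in the 2 patterns was not tested. Their sum, which does not depend on the division between them, was at 17.8, 14.1, 15.1, 20.9 and 14.1 CPM with EV and at 47.9, 44.3, 32.8 and 9.49 CPM with sgZrsr2, so it too was highest in sgZrsr2 1 and 2 and lowest in sgZrsr2 5. The log2 fold changes were 1.88 (SE 0.92; edgeR adjusted p = 0.714) and 0.89 (SE 0.51; adjusted p = 0.718). The embryonic globins Hba-x and Hbb-bh1 had 0 counts in all libraries.

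**Figure D4:**
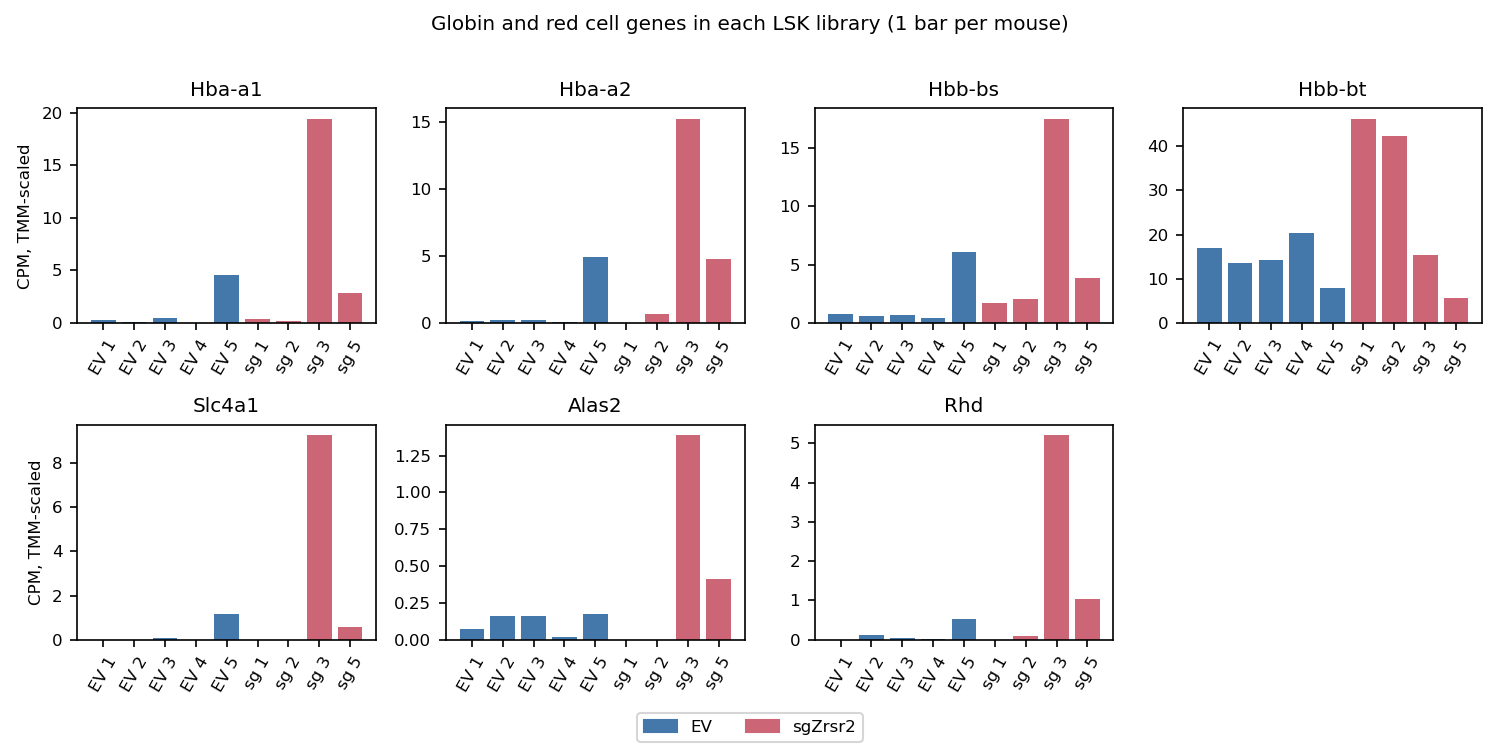
Levels of alpha-globin, beta-globin and other red cell genes in each library (TMM-scaled CPM, 1 bar per mouse, EV in blue and sgZrsr2 in red, each panel with its own axis from 0). Rhd is from the early progenitor list. Hba-a1, Hba-a2, Hbb-bs, Slc4a1, Alas2 and Rhd are highest in sgZrsr2 3, while Hbb-bt is highest in sgZrsr2 1 and 2, at 46.2 and 42.3 CPM.

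Markers of other cell types were read in the same libraries. The 12 megakaryocyte and platelet genes summed to 195 to 420 CPM with EV, with EV 5 highest, and to 344, 294, 532 and 605 CPM in sgZrsr2 1, 2, 3 and 5. Pf4 was at 22.0, 27.9 and 37.4 CPM and Vwf at 53.2, 91.1 and 85.3 CPM in EV 5, sgZrsr2 3 and sgZrsr2 5, and at no more than 3.43 and 11.4 CPM elsewhere, so both were high in the same libraries as Car1. Itga2b, the most abundant gene of the list, was at 109 to 263 CPM in EV and 205 to 319 CPM in sgZrsr2 and did not share that pattern, since EV 4 was above EV 5 and sgZrsr2 1 above sgZrsr2 3. Ppbp, abundant in platelets, reached 1.73 CPM and was higher in sgZrsr2 1 (0.935) than in EV 5 (0.727). The 10 mature neutrophil genes summed to 191 CPM in EV 5, 226 CPM in sgZrsr2 3 and 43.2 CPM in sgZrsr2 5. In the other 6 libraries they summed to 23.1 to 87.9 CPM. Their sum was thus high together with the erythroid genes in EV 5 and sgZrsr2 3 and not in sgZrsr2 5. S100a8, S100a9, Ngp, Camp, Ltf and Fcnb were highest in sgZrsr2 3 and Retnlg in EV 5. Lcn2 and Mmp8 were highest in EV 4 (44.4 and 7.04 CPM) and Cxcr2 in sgZrsr2 5 (11.8 CPM). The mast cell, basophil and eosinophil list shares Kit with the LSK gate. It summed to 647, 754 and 692 CPM in the 3 libraries and to 304 to 501 CPM elsewhere. Kit alone gave 523, 632 and 522 CPM of these 3 sums. Cma1 and Tpsb2 were at 0 in the other 6 and reached at most 57 and 9 counts, with Tpsb2 at 0 in sgZrsr2 3 as well. Other genes of the list differed. Gzmb was highest in EV 3 (7.83 CPM), and Ms4a2 and Fcer1a were higher in EV 4 (6.17 and 6.48 CPM) than in EV 5 (3.08 and 5.88 CPM). The lymphoid list summed to 60.3 to 102 CPM and the monocyte and macrophage list to 318 to 625 CPM, highest in sgZrsr2 5 and in EV 3. The part of these cell types in the erythroid values was not tested.

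Over the 9 libraries, the 13114 genes that averaged 1 CPM or more were ranked by the Pearson correlation of their log2 CPM with that of Car1. The closest were Irf2bp1 (r = 0.992), P2ry1 (0.988), Ermap (0.979), the antibody segment Igkv15-103 (0.974) and Klf1 (0.972), so 2 of the 5 were members. P2ry1, an ADP receptor best known from platelets, was at 4.05 to 6.86 CPM in the 6 libraries low in Car1 and at 16.3, 18.5 and 24.7 CPM in EV 5, sgZrsr2 3 and sgZrsr2 5. Irf2bp1, a partner of the transcription factor IRF2, moved only between 77.4 and 105 CPM. The genes closest to the alpha-globin sum were Pdgfb (0.977), Nisch (0.976), Ighv3-8 (0.969), 9830001H06Rik (0.969) and D19Wsu162e (0.966), with no member among them. The members themselves had r with Car1 of 0.933 for Aqp1, 0.849 for Gata1, 0.575 for Car2 and -0.45 for Tfrc. The libraries form 2 separate clusters in these values, so each r mainly records which libraries are high, and all points share their library's depth and scaling. It is given as a description.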

How the data were processed

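RNA from 9 libraries of sorted LSK cells (5 EV, 4 sgZrsr2) was analysed. The values are expected counts per gene as the authors deposited them; RSEM 1.2.30, cutadapt 1.11 and the build GRCm38 are named per the submitters' processing notes, and polyadenylated RNA was used per the labels' protocols. The annotation release, the aligner and the strandedness are not given in the sources used here. Counts were rounded, filtered with filterByExpr (minimum count 10, minimum total 15; 14944 genes kept) and scaled by TMM. Groups were compared with edgeR 4.0.16 (quasi-likelihood test, two-sided, Benjamini-Hochberg over all genes tested) and, for single genes, by exact permutation of the group labels (126 splits, two-sided). The test was first tried on simulated counts with 200 changed genes. Log2 CPM used a prior count of 2. Levels per kilobase used the union of exons in GENCODE M21, which may not be the authors' annotation. PCR reads without molecular identifiers are not independent molecules, so intervals cover counting error only. Depths of 23238264 to 45585531 counts left members with few counts imprecise.

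Mouse numbers were not taken as pairs. Alternatives were RLE and upper-quartile factors, other filters, DESeq2 1.42.0, limma-voom (limma 3.58.1), the mouse number as a block, leaving out each library and averaging sgZrsr2 mice 1 and 2. The members and gene lists were chosen with earlier results of these data known, and the lists were written from general knowledge. Genes outside the members were named by role, by the smallest p in each list or by likeness; a gene the rule names by role is not reported here. Of 11 listed globin genes 10 were found in the table. Older symbols in the table were matched to current ones by identifier.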

Additional observations from a re-analysis of the deposited data

Results flagged for a closer look

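A single library far from its group was looked for in each of the 9 members and the alpha-globin sum, with EV and sgZrsr2 taken separately, from the gap between the extreme library and the next as a share of the full range. This gave 20 sets, of which 8 had such a library and about 1 would by chance. The 8 are not independent because the same genes are high in the same libraries.

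EV mouse 5 lay far above the other EV libraries for 7 measures. Klf1 was at 8.81 CPM there against 1.75 CPM in the next EV library, and Car1 at 25.4 CPM against 0.422 CPM. Aqp1 was at 43.3 CPM against 8.49 CPM, and Ermap at 4.30 CPM against 0.266 CPM. Hba-a1 was at 4.57 CPM against 0.453 CPM, Hba-a2 at 4.91 CPM against 0.233 CPM and their sum at 9.48 CPM against 0.686 CPM. In sgZrsr2 mouse 3, Hba-a1 was at 19.4 CPM against 2.85 CPM in the next sgZrsr2 library. Summed mature neutrophil genes were also highest in these libraries, at 191 and 226 CPM, and their part in the erythroid values was not tested. Gata1, Car2 and Tfrc had no library that stood out in this way in either group.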

How the results depend on the processing

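Of 294 values recomputed under other settings, 278 kept their direction and their side of the threshold or their size, among them all 136 fold changes of members. For a fold change only the sign and the side of the adjusted threshold were asked for, and its size was not judged. Hba-a1 thus counted as kept at 0.11 and at 4.78, against 2.41 with all libraries. The smallest adjusted p of a member was 0.714 in the main edgeR fit, far from that threshold. The sign turned in 11, all of them list medians near 0: 6 of 11 for haem synthesis (from -0.07 to 0.05) and 5 of 11 for iron (from -0.04 to 0.11). The alpha-globin sum ran from 1.44 to 2.98 over 8 alternatives and from 0.45 to 4.85 over the fits that left out a library, and the number of members past the adjusted threshold was 0 throughout. With the mouse number as a replicate block the alpha-globin sum was at 1.44, Klf1 at 0.72, Aqp1 at 0.64 and the early progenitor list median at 0.45, and 0 members passed. Same-numbered mice had correlations of -0.228, -0.0904, -0.404 and 0.369 for mice 1, 2, 3 and 5, so mouse 5 alone deviated together. Only that 1 of 4 sgZrsr2 libraries correlated best with its own number, and no label ties the numbers, so they were not taken as pairs. With limma-voom quality weights Gata1, Klf1, Aqp1 and Car1 shrank to 0.43, 0.41, 0.44 and 1.02, and the cause was not tested. The early minus late difference ran from -1.44 to -1.14 over the alternatives and from -1.59 to -0.75 over the fits without a library. The median of the membrane list rose to 1.44 without the low-count filter and to 1.84 without sgZrsr2 mouse 1 or mouse 2, settings that let more low genes be tested. With Spearman in place of Pearson, 2 of the 5 genes most like Car1 and 2 of the 5 most like alpha-globin stayed in the top 5. Requiring 1 CPM or more in 4 or more libraries removed Car1, Ermap and both alpha-globin genes, so it gave no value for them. Depth limits Car1, Ermap and alpha-globin in the 6 libraries with 22 or fewer counts of each.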

Other observations

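Some genes of the wider lists, named after their values were seen, had patterns of their own. Prss34, a protease of basophils, was at 12.4, 8.16, 3.83, 26.8 and 50.8 CPM in EV 1 to 5 and at 0, 0, 31.6 and 58.0 CPM in sgZrsr2 1, 2, 3 and 5. It had no counts in the sgZrsr2 libraries with the lowest Car1, yet it was present in EV 1 to 4, where Car1 stayed at or below 0.422 CPM. Mcpt8, another basophil protease, was at 12.7 to 32.4 CPM in all 9 libraries.

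Socs3, a feedback inhibitor of Jak signalling, was at 59.1, 82.2, 366.8, 216.7 and 34.6 CPM in EV and at 144.6, 134.2, 69.9 and 42.7 CPM in sgZrsr2, in the same order. It was lowest in EV 5 and sgZrsr2 5 and highest in EV 3, which also had the highest Tfrc. Slc2a1, the glucose transporter, had a log2 fold change of -0.93 and Sptb, a spectrin of the red cell skeleton, one of 2.37, with edgeR unadjusted p of 0.0212 and 0.0207 and a Benjamini-Hochberg adjusted p of 0.714 for each. Slc2a1 was at 39.0, 47.7, 122.9, 70.4 and 33.7 CPM in EV and at 36.5, 36.9, 27.8 and 31.0 CPM in sgZrsr2. EV 5 thus lay within the sgZrsr2 range. Sptb was at 0.592 to 2.76 CPM in EV and at 1.60, 0.320, 18.0 and 6.59 CPM in sgZrsr2. Only sgZrsr2 3 and 5 were above the EV range, and sgZrsr2 2 was below it.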
